A study of Homo sapiens with 112 samples.

Results

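The STEAP metalloreductases are a small family of membrane-spanning proteins named after the prostate epithelium in which their first member was found. The genes described here are the 5 rows STEAP1, STEAP1B, STEAP2, STEAP3 and STEAP4 of a table of 58684 genes, chosen by symbol, with no use of their measured values. The table holds the RNA-seq read counts of 112 libraries from VCaP and LAPC4 cells, which are human prostate cancer lines that respond to androgen. Before treatment, cells of both lines spent 2 days in 10% serum that charcoal had stripped of most steroid hormones, and they were then given vehicle, the synthetic androgen R1881, or R1881 with the antiandrogen darolutamide. The question of the design was how far darolutamide blocks the transcriptional response to androgen.

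Each line has 8 groups, made of 4 treatments harvested at 8 h or at 22 h. The DMSO groups carried vehicle in place of both agents, the R1881 groups 1 nM R1881 and vehicle, the low-dose groups 1 nM R1881 with 500 nM darolutamide, and the high-dose groups 1 nM R1881 with 2 µM darolutamide. In VCaP cells the DMSO, R1881, low-dose and high-dose groups held 10, 10, 4 and 5 libraries at 8 h and 8, 9, 4 and 5 libraries at 22 h. In LAPC4 cells they held 10, 10, 5 and 5 libraries at 8 h and 7, 10, 5 and 5 libraries at 22 h. Each line stands for 1 tumour, every darolutamide group used here also received R1881, and a difference between the lines cannot be told apart from a difference between their cultures.

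STEAP2, STEAP3 and STEAP4 carry an oxidoreductase domain on the cytoplasmic side, which takes electrons from NADPH, and a haem-binding transmembrane domain, through which the electrons pass to ferric iron or cupric copper. The reduced metal ions can then be carried across membranes by divalent metal and copper transporters. STEAP1 has the transmembrane domain but lacks the NADPH-binding domain, and it is known as a surface antigen of prostate cancer cells. STEAP3 is known as the reductase of transferrin endosomes in red cell precursors, and STEAP4 as a metabolic and inflammatory gene of adipose tissue that also responds to androgen in prostate cells. STEAP1B is a close copy of STEAP1 whose product is little studied.

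The libraries held 12188455 to 25201678 counted reads, with a median of 20144050. Levels are given below as CPM, the reads of a gene relative to those of the whole library, scaled by the trimmed mean of M values (TMM) within each line, and a gene was called where the adjusted p of edgeR's quasi-likelihood test was under 0.05. All 5 STEAP genes passed the filter on low counts (10 or more reads in 4 or more libraries) in each line and were tested in every comparison. The luminal epithelial genes KLK3, HOXB13, KRT8, KRT18 and EPCAM had reads in every library. ERG, the fusion partner known from VCaP, had 1578 to 21554 reads in VCaP libraries and at most 1 in LAPC4 libraries. Markers of stroma, leukocytes and endothelium did not exceed 66 reads in any library. In bulk RNA, fewer cells expressing a gene and less RNA per cell cannot be told apart.

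On GRCh38, 4 of the 5 genes lie on chromosome 7. STEAP1 spans positions 90154456 to 90164829 on the plus strand and STEAP2 follows it on the same strand from 90167590 to 90238137. STEAP4 lies on the minus strand from 88270892 to 88306894, and STEAP1B lies far from them, also on the minus strand, from 22419444 to 22727613. STEAP3 is on chromosome 2, from 119223831 to 119265652 on the plus strand. STEAP1 and STEAP1B share sequence in their transcripts. Of the 1541 stretches of 50 bases in the STEAP1 transcripts, which is the read length, 347 (22.5%) also occur in STEAP1B, where they make up 5.21% of the stretches. No stretch of that length is shared between any other members. The setting used for reads that match more than 1 gene is not given in the sources used here. The levels of STEAP1 and STEAP1B, and the shares that rest on them, are therefore uncertain.

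The promoters of STEAP1 and STEAP1B are shown because the level of STEAP1B followed that of STEAP1 in VCaP cells. In RefSeq's windows of 250 bases before to 50 after the annotated start (GRCh38.p14), their sequences were identical at 96.7% of 300 bases. The STEAP1B window, chr7:22500139-22500438, lies inside the gene body given above and not at its outer start. In the STEAP1 window below, read 5′ to 3′ from chr7:90154219-90154448 on the plus strand, capitals mark the 5 bases that differ from STEAP1B, and the annotation has no exon here.
STEAP1: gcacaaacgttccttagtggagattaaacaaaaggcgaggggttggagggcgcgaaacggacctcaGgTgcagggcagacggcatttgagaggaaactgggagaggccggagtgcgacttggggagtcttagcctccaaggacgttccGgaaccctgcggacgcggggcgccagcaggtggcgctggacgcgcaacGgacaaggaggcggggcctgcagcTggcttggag
The stretch with a pair of differences close together was chr7:90154271-90154300 (plus strand) for STEAP1 and chr7:22500357-22500386 (minus strand) for STEAP1B, where the annotation puts an exon of STEAP1B.
STEAP1: cgaaacggacctcaGgTgcagggcagacgg
STEAP1B: cgaaacggacctcaAgGgcagggcagacgg
The STEAP4 promoter, chr7:88306915-88307144 on the minus strand, is shown because STEAP4 had the largest response, and the annotation has no exon in it.
STEAP4: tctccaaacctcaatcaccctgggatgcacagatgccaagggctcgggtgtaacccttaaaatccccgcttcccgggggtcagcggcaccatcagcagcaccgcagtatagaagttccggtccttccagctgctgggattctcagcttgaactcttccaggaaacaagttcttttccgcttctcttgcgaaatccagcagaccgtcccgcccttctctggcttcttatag
For STEAP2, the RefSeq table gives 2 starts, and the window of the downstream start, chr7:90213570-90213799 on the plus strand, holds a forkhead motif, read on the other strand, in capitals at 66 bases before the start.
STEAP2: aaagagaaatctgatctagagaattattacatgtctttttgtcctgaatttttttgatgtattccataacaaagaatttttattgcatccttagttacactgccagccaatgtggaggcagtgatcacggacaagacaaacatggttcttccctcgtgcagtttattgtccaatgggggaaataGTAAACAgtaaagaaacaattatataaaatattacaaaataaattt
Both strands of the 300-base windows were searched for 3 motifs, the steroid hormone half-site AGAACA, the full androgen response element, an inverted repeat that holds the half-site, and the forkhead motif TGTTTAC. None of the 6 windows of the 5 genes held the half-site or the full element, which 14.8% and 0.00285% of 35116 RefSeq promoters of the same length held. The forkhead motif occurred in the 1 STEAP2 window shown and in 3.42% of all promoters. The STEAP1B window and both STEAP2 windows lie inside the gene bodies given above. The outermost starts of these genes were therefore not searched.

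In hormone-starved cells, 4 of the 5 STEAP genes had a higher level in VCaP than in LAPC4. In DMSO libraries at 22 h, 5 of 5 STEAP genes differed between the lines, 4 of them higher in VCaP, where 85.5% of the 16578 genes tested in both lines differed. STEAP2 was higher in VCaP by a log2 fold change of 5.81 (standard error 0.0767, 56-fold), STEAP1B by 4.33 (20.1-fold), STEAP1 by 4.24 (18.8-fold) and STEAP3 by 3.31 (9.94-fold). STEAP4 went the other way, at -1.38 (standard error 0.072, 2.59-fold lower in VCaP). All 5 had adjusted p-values of at most 8.51e-35 in edgeR's test. Among VCaP libraries of this group, STEAP4 lay between 6.52 and 7.75 CPM (median 7.37), and among LAPC4 libraries between 19 and 25.8 CPM (median 23.4), on CPM scaled separately in each line, whereas the test is from a fit over both lines.

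Per kilobase of exon, the order of the members in starved VCaP cells at 22 h was STEAP1 (169 ± 5.96 CPM per kb, SD, n = 8), STEAP2 (111 ± 5.81), STEAP1B (11.8 ± 0.873), STEAP3 (2.7 ± 0.272) and STEAP4 (0.647 ± 0.0367). No neighbours in that order came within their SDs of each other. In starved LAPC4 cells at 22 h, STEAP1 also led at 11.1 ± 0.653 CPM per kb (SD, n = 7). It was followed by STEAP2 at 2.45 ± 0.267 and STEAP4 at 2.07 ± 0.199, which came within the sum of their SDs, and then by STEAP1B at 0.726 ± 0.122 and STEAP3 at 0.333 ± 0.0464.

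The androgen response of the family in VCaP cells was dominated by STEAP4. At 8 h, 5 of 5 STEAP genes were called for R1881 against DMSO, 4 higher and 1 lower, in a comparison that called 66.9% of 19266 genes. At 22 h, 4 of 5 were called, all higher, against a background of 77.4%. The counts alone therefore did not set the family apart, whereas STEAP4 ranked 29th at 8 h and 27th at 22 h among all 19266 genes by the size of its fold change. The median log2 fold change of the 5 genes was 0.51 at 8 h and 0.52 at 22 h, against -0.0344 and -0.0343 over all tested genes.

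**Figure D1:**
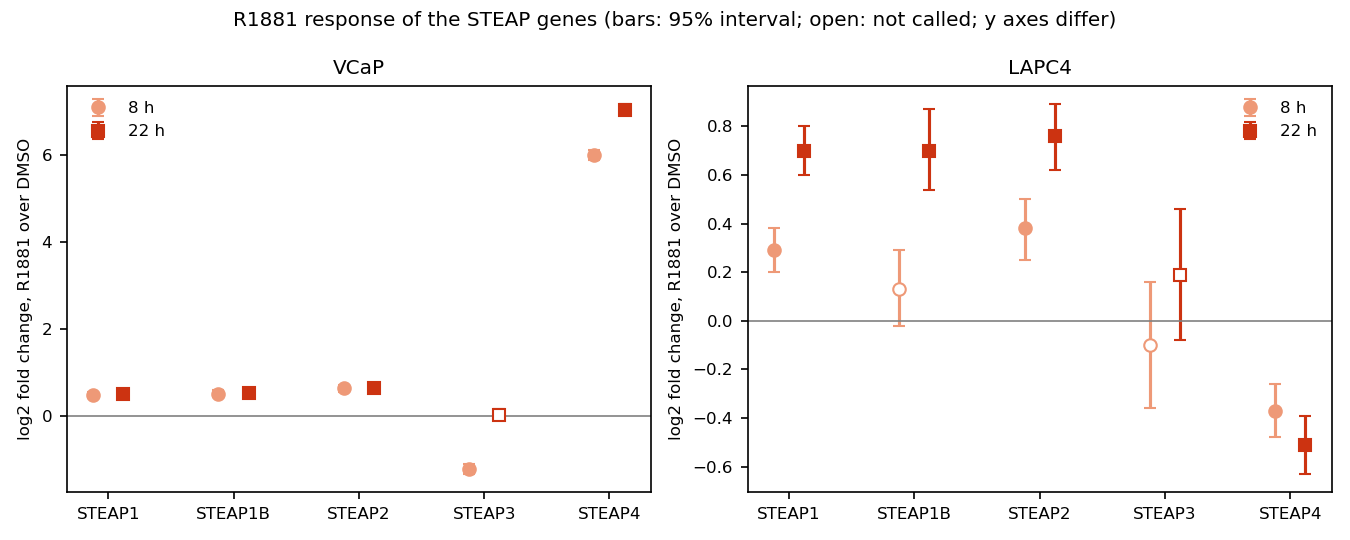
The log2 fold change of R1881 over DMSO is plotted for each STEAP gene at 8 h (circles) and 22 h (squares), with 95% intervals, for VCaP on the left and LAPC4 on the right, with a different vertical axis for each line. Filled symbols mark genes with an adjusted p under 0.05. STEAP4 stands at 6.01 and 7.04 in VCaP and at -0.37 and -0.51 in LAPC4, while STEAP1 and STEAP2 are above 0 in both lines.

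STEAP4 had a low level in starved VCaP cells and rose 64.3-fold at 8 h and 132-fold at 22 h under R1881. At 8 h the DMSO libraries lay between 4.98 and 6.8 CPM (median 6.58) and the R1881 libraries between 337 and 435 CPM (median 392). At 22 h the DMSO libraries lay between 6.52 and 7.75 CPM (median 7.37) and the R1881 libraries between 877 and 1100 CPM (median 949). The groups did not overlap at either time. The log2 fold change was 6.01 (standard error 0.0566, adjusted p = 2.33e-60 in edgeR's test) at 8 h and 7.04 (standard error 0.0643, adjusted p = 7.34e-61) at 22 h. In reads, this was a shift from 95 to 166 STEAP4 reads per DMSO library to 14233 to 20245 per R1881 library at 22 h.

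**Figure D2:**
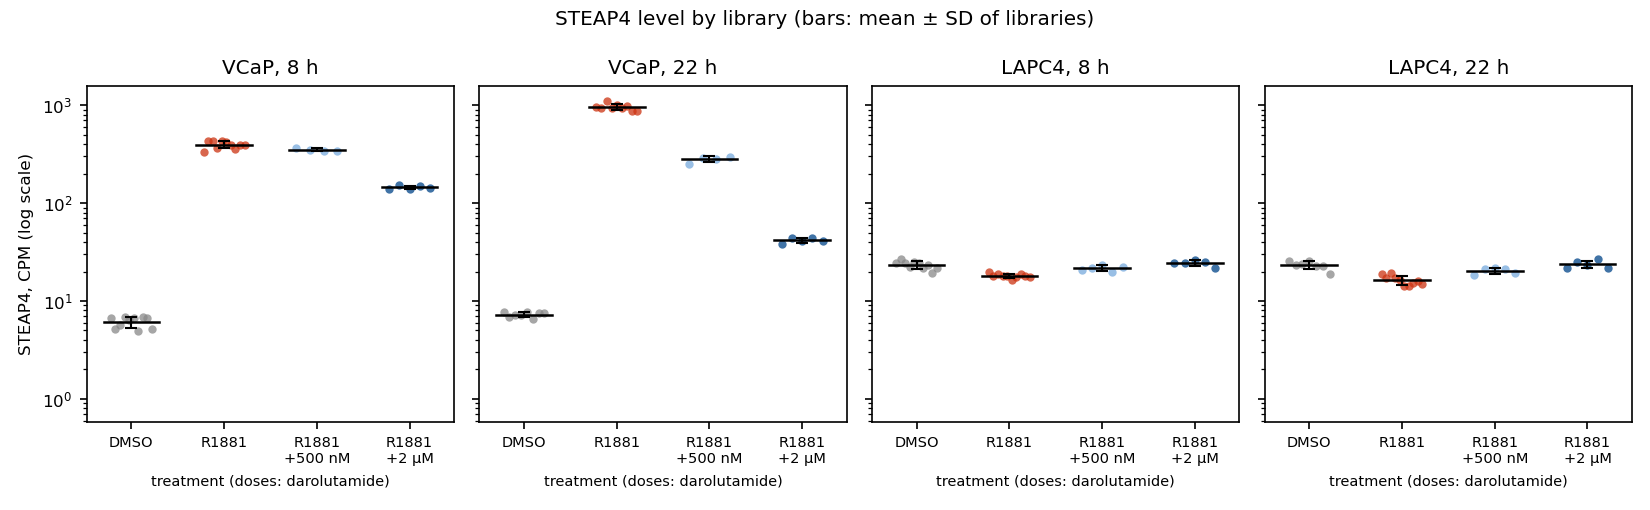
STEAP4 level in each library, as CPM on a log axis, by treatment, line and time, with the mean and SD of each group as bars. In VCaP cells the R1881 libraries at 22 h sit between 877 and 1100 CPM and the 2 µM darolutamide libraries between 37.8 and 44.1 CPM, while all LAPC4 groups sit between 14.1 and 26.9 CPM.

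STEAP1 and STEAP2, which lead the family in starved VCaP cells, rose by 1.4-fold to 1.56-fold. At 8 h, STEAP1 lay between 248 and 276 CPM (median 263) in DMSO and between 337 and 395 CPM (median 371) in R1881 libraries. At 22 h, the corresponding ranges were 247 to 280 CPM (median 261) and 341 to 398 CPM (median 372). The ranges did not overlap at either time. This was a log2 fold change of 0.48 (standard error 0.0317, adjusted p = 4.18e-20) at 8 h and 0.51 (standard error 0.0346, adjusted p = 1.07e-19) at 22 h in edgeR's test.

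STEAP2, which per length had the highest level of the members with an NADPH-binding domain, lay between 932 and 1080 CPM (median 967) in DMSO and between 1260 and 1680 CPM (median 1560) in R1881 libraries at 8 h. By 22 h it lay between 901 and 1060 CPM (median 975) and between 1330 and 1770 CPM (median 1520). Again every R1881 library was above every DMSO library. As a log2 fold change this was 0.63 (standard error 0.0412, 1.55-fold, adjusted p = 2.39e-20) at 8 h and 0.64 (standard error 0.045, 1.56-fold, adjusted p = 4.67e-19) at 22 h in edgeR's test.

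STEAP1B followed STEAP1, with log2 fold changes of 0.51 at 8 h and 0.52 at 22 h (standard errors 0.0406 and 0.0444, adjusted p = 1.08e-16 and 1.15e-15 in edgeR's test). Its libraries rose from a median of 74.3 to 108 CPM at 8 h and from 75.5 to 109 CPM at 22 h, without overlap. The ratio of STEAP1B to STEAP1 reads stayed between 0.273 and 0.311 in every VCaP library, and its group medians ran from 0.283 to 0.297 over the 8 groups. Whether reads from the shared stretches carried the STEAP1 signal into STEAP1B was not tested.

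STEAP3, the endosomal ferrireductase, was the member that fell at the early time in VCaP cells. At 8 h it lay between 14.1 and 18.7 CPM (median 16.9) in DMSO and between 6.26 and 8.68 CPM (median 6.81) in R1881 libraries. The groups were separate, and the log2 fold change was -1.22 (standard error 0.06, 2.33-fold lower, adjusted p = 1.22e-25 in edgeR's test). The 22 h libraries lay between 10.4 and 14.1 CPM (median 12.3) in DMSO and between 11.2 and 14.2 CPM (median 13) in R1881 libraries. These overlapped, and the log2 fold change was 0.02 (95% interval -0.1 to 0.15, adjusted p = 0.771).

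The 2 time points were compared directly through the difference of the R1881 responses. In VCaP cells 2 of 5 members differed between 22 h and 8 h, in a contrast that called 60.4% of genes. The STEAP3 response was 1.24 log2 units higher at 22 h than at 8 h (standard error 0.0877, adjusted p = 2.09e-18 in edgeR's test), and the STEAP4 response 1.03 higher (standard error 0.0818, adjusted p = 1.53e-16). For STEAP1, STEAP1B and STEAP2 the difference was between 0.01 and 0.03, and none was called. The vehicle libraries themselves also drifted. Between 8 h and 22 h of DMSO, 2 of 5 members were called where 29.8% of genes were, STEAP3 at -0.44 (adjusted p = 6.66e-08) and STEAP4 at 0.24 (adjusted p = 0.00536, lost with control replicates 1 to 5 alone at 0.23 and 6 upward alone at 0.21).

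Darolutamide was compared with R1881 alone, so these comparisons share their R1881 libraries with those above and with each other. In VCaP cells at 22 h, 4 of 5 members were called at 500 nM, 2 higher and 2 lower, with a background of 53%. At 2 µM, 3 of 5 were called, 1 higher and 2 lower, with a background of 66.9%. At 8 h, 5 of 5 were called at 500 nM, 4 higher and 1 lower, where 30.6% of genes were called, and 3 of 5 at 2 µM, 2 higher and 1 lower, where 52.1% were called. The members did not move as one group, and they are therefore taken one by one.

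STEAP4 fell with dose in VCaP cells at both times. At 22 h the 4 libraries with 500 nM darolutamide stood at 252, 290, 282 and 299 CPM, and the 5 libraries with 2 µM at 37.8, 43.7, 41.2, 44.1 and 41.5 CPM. The 500 nM group was below every R1881 library and the 2 µM group below both. The log2 fold change against R1881 was -1.78 at 500 nM (standard error 0.0613, 3.42-fold lower, adjusted p = 1.25e-31 in edgeR's test) and -4.53 at 2 µM (standard error 0.0665, 23-fold lower, adjusted p = 5.23e-50). Between the doses it was -2.75 (standard error 0.0665, 6.73-fold lower at 2 µM, adjusted p = 6e-38). The 2 µM libraries were still 5.72-fold above DMSO (log2 2.52, standard error 0.0659, adjusted p = 3.09e-37).

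At 8 h the 500 nM libraries had STEAP4 at 368, 349, 341 and 344 CPM, all within the range of the R1881 group. The 2 µM libraries had 141, 153, 141, 149 and 142 CPM, all below it. The fitted log2 fold change was -0.18 at 500 nM (standard error 0.0556, adjusted p = 0.0111 in edgeR's test) and -1.45 at 2 µM (standard error 0.0549, 2.73-fold lower, adjusted p = 2.48e-30). The call at 500 nM was lost when library totals replaced TMM scaling, where the value was -0.1, and under a replicate block, where it was -0.14. From lowest to highest, the mean STEAP4 level over the 8 VCaP groups ran from DMSO at 8 h (6.13 CPM) and 22 h (7.28) through 2 µM at 22 h (41.7), 2 µM at 8 h (145), 500 nM at 22 h (280), 500 nM at 8 h (351) and R1881 at 8 h (396) to R1881 at 22 h (960). In that order the neighbouring DMSO groups overlapped in range, as did 500 nM and R1881 at 8 h.

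STEAP1 kept its androgen-induced level under darolutamide in VCaP cells. At 22 h the 500 nM libraries stood at 382, 425, 410 and 398 CPM and the 2 µM libraries at 354, 388, 337, 386 and 385 CPM. Both groups overlapped the R1881 range of 341 to 398 CPM, and every library of both was above every DMSO library. Against R1881 the log2 fold change was 0.12 at 500 nM (standard error 0.0422, adjusted p = 0.0163 in edgeR's test), a call that was lost without 500 nM replicate 2, where the value was 0.09, under a replicate block, at 0.12, and with no filter on low counts, at 0.1. At 2 µM it was -0.01 (95% interval -0.09 to 0.07, adjusted p = 0.852), and against DMSO the 2 µM libraries were higher by 0.5 (adjusted p = 2.43e-16). With library totals in place of TMM the 2 µM value turned to 0.08.

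At 8 h STEAP1 was slightly above the R1881 level at both doses. The 500 nM libraries stood at 433, 392, 397 and 416 CPM and the 2 µM libraries at 377, 404, 381, 401 and 394 CPM, against 337 to 395 CPM under R1881. The ranges overlapped, with 3 of 4 and 2 of 5 libraries above every R1881 library. In the fit, the log2 fold change was 0.16 at 500 nM (adjusted p = 0.00155 in edgeR's test) and 0.1 at 2 µM (adjusted p = 0.0314). The call at 2 µM was lost without 2 µM replicate 2, 4 or 5, where the values were 0.08, 0.09 and 0.09.

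STEAP2 parted from STEAP1 at 22 h. The 500 nM libraries stood at 1090, 1140, 1190 and 1240 CPM and the 2 µM libraries at 964, 983, 959, 1060 and 1040 CPM. Both groups lay wholly below the R1881 range of 1330 to 1770 CPM, and the 2 µM group fell into the DMSO range of 901 to 1060 CPM, except that its highest library was just above it. The log2 fold change against R1881 was -0.38 at 500 nM (standard error 0.0562, 1.3-fold lower, adjusted p = 6.58e-08 in edgeR's test) and -0.59 at 2 µM (standard error 0.0524, 1.51-fold lower, adjusted p = 5.02e-15). Against DMSO the 2 µM libraries differed by 0.05 (95% interval -0.06 to 0.15, adjusted p = 0.468).

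At 8 h no such fall was seen in STEAP2. The 500 nM libraries stood at 1870, 1780, 1640 and 1710 CPM and the 2 µM libraries at 1430, 1620, 1540, 1660 and 1580 CPM, against 1260 to 1680 CPM under R1881. The 500 nM group reached above the R1881 range and the 2 µM group lay within it. Its log2 fold change was 0.2 at 500 nM (standard error 0.0538, adjusted p = 0.00327 in edgeR's test), which lost its call under a replicate block although the value was 0.28, and 0.04 at 2 µM (95% interval -0.06 to 0.13, adjusted p = 0.584).

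**Figure D3:**
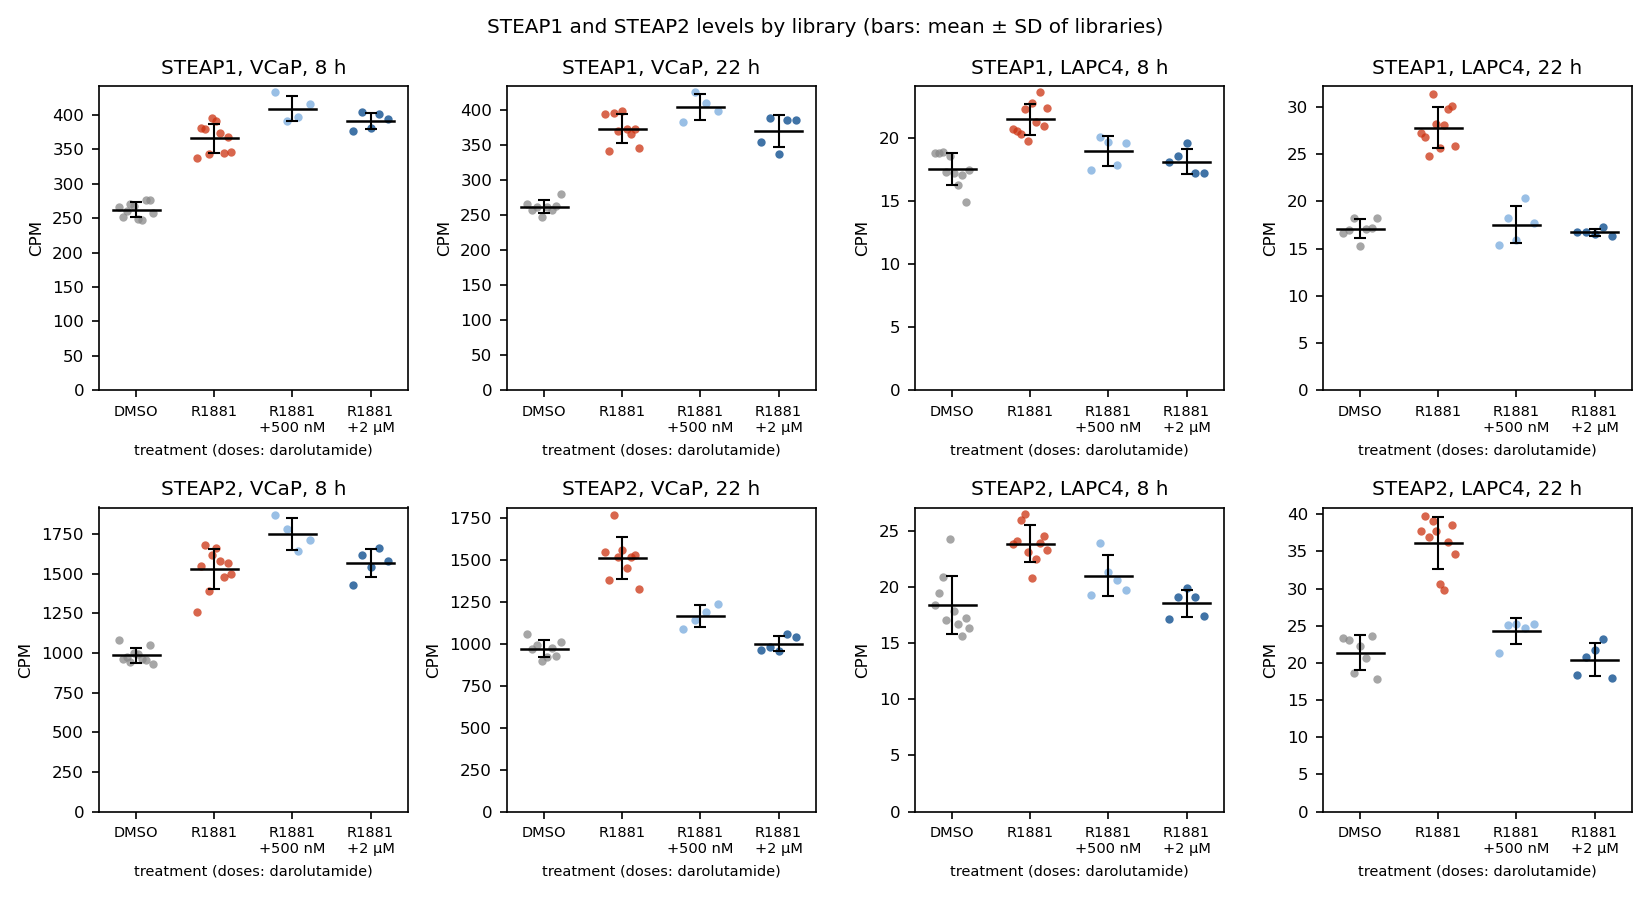
STEAP1 (top row) and STEAP2 (bottom row) in each library, as CPM on axes that start at 0, by treatment, line and time, with the mean and SD of each group as bars. In VCaP cells at 22 h, STEAP1 stays at 337 to 425 CPM under darolutamide while STEAP2 drops from 1330 to 1770 CPM under R1881 to 959 to 1060 CPM at 2 µM, and in LAPC4 cells at 22 h both genes return to the DMSO range at 2 µM.

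Over the 8 VCaP groups, the order of the mean STEAP1 level was DMSO at 22 h (261 ± 9.2 CPM), DMSO at 8 h (262 ± 10.8), R1881 at 8 h (366 ± 21.3), 2 µM at 22 h (370 ± 22.9), R1881 at 22 h (372 ± 20.6), 2 µM at 8 h (391 ± 11.9), 500 nM at 22 h (404 ± 18.2) and 500 nM at 8 h (410 ± 18.9), with SDs. The only neighbours further apart than the sum of their SDs were DMSO at 8 h and R1881 at 8 h. STEAP1 was thus lower in both DMSO groups than in all 6 groups with R1881. STEAP2 began with DMSO at 22 h (970 ± 50.6), DMSO at 8 h (984 ± 46.3) and 2 µM at 22 h (1000 ± 46.5), which were not apart by that measure. It went on to 500 nM at 22 h (1160 ± 65.2) and then to R1881 at 22 h (1510 ± 125), R1881 at 8 h (1530 ± 128), 2 µM at 8 h (1570 ± 86.4) and 500 nM at 8 h (1750 ± 97.4), of which no neighbours were apart. By this measure of neighbours, 500 nM at 22 h was the 1 group between a low and a high set. The high set was not a single level. In it, 500 nM at 8 h was called above R1881 at 8 h (log2 0.2, adjusted p = 0.00327 in edgeR's test), a call lost under a replicate block.

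The difference between these neighbouring genes was tested within libraries, through the ratio of STEAP2 to STEAP1 reads, which needs no scaling between libraries. This test was chosen after the values had been seen, and 8 such comparisons were made. In VCaP cells at 22 h the ratio lay between 3.85 and 4.47 under R1881, between 2.69 and 3.11 at 500 nM and between 2.54 and 2.84 at 2 µM, without overlap with R1881. The DMSO ratio at that time was 3.54 to 3.98. On the log2 scale the ratio was lower by 0.49 at 500 nM (two-sided exact permutation p = 0.0014, the smallest that 715 arrangements can give, adjusted p = 0.00559) and by 0.58 at 2 µM (exact permutation p = 0.0005, the smallest of 2002 arrangements, adjusted p = 0.004). The other 6 comparisons, at 8 h in VCaP and at both times in LAPC4, gave differences between -0.12 and 0.1 with adjusted p-values of at least 0.223 in the same exact test.

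STEAP1B, like STEAP1, was not lower than under R1881 alone in VCaP cells with darolutamide. At 22 h its libraries stood at 111, 118, 122 and 113 CPM with 500 nM and at 102, 110, 99.1, 115 and 112 CPM with 2 µM, overlapping the R1881 range of 97.3 to 121 CPM. Neither dose was called at 22 h (log2 fold changes 0.08 and -0.03, adjusted p = 0.231 and 0.617 in edgeR's test). At 8 h the values were 0.18 at 500 nM (adjusted p = 0.00465), lost under a replicate block at 0.24, and 0.1 at 2 µM (adjusted p = 0.0849), with libraries at 129, 118, 115 and 124 CPM and at 109, 119, 109, 118 and 116 CPM. In the order of its VCaP group means, the DMSO groups (75 ± 4.77 CPM at 8 h and 76.7 ± 5.66 at 22 h) were apart from the other 6, which ran from 107 ± 7.48 under R1881 at 8 h to 121 ± 6.27 at 500 nM and 8 h.

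STEAP3 rose under darolutamide in VCaP cells at both times. At 8 h the 500 nM libraries stood at 9.39, 10.2, 10.5 and 9.6 CPM and the 2 µM libraries at 12.8, 12.4, 13.4, 14.6 and 12.4 CPM. All were above the R1881 range of 6.26 to 8.68 CPM, and all but the highest 2 µM library were below the DMSO range of 14.1 to 18.7 CPM. The log2 fold change against R1881 was 0.47 at 500 nM (standard error 0.0804, adjusted p = 3.44e-06 in edgeR's test) and 0.87 at 2 µM (standard error 0.0717, 1.83-fold, adjusted p = 6.76e-16), and between the doses it was 0.4 (adjusted p = 0.000439).

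At 22 h, where R1881 alone had left STEAP3 at the vehicle level, STEAP3 stood above both controls with darolutamide. The 500 nM libraries stood at 17.2, 14.5, 15.8 and 18 CPM and the 2 µM libraries at 19.3, 17.4, 19.9, 19.9 and 17.9 CPM, all above the highest R1881 library (14.2 CPM) and the highest DMSO library (14.1 CPM). Against R1881 the log2 fold change was 0.39 at 500 nM (standard error 0.0761, adjusted p = 1.66e-05 in edgeR's test) and 0.6 at 2 µM (standard error 0.0697, 1.51-fold, adjusted p = 6.41e-11). Against DMSO the 2 µM libraries were higher by 0.62 (standard error 0.0714, adjusted p = 8.43e-11), whereas at 8 h they were lower by 0.34 (log2 -0.34, adjusted p = 9e-05).

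The STEAP3 means over the VCaP groups were lowest under R1881 at 8 h (7.14 ± 0.777 CPM), followed by 500 nM at 8 h (9.92 ± 0.506), DMSO at 22 h (12.3 ± 1.24), R1881 at 22 h (12.5 ± 1.05), 2 µM at 8 h (13.1 ± 0.939), 500 nM at 22 h (16.4 ± 1.54), DMSO at 8 h (16.7 ± 1.54) and 2 µM at 22 h (18.9 ± 1.16). Neighbours from DMSO at 22 h to 2 µM at 8 h, and those from 500 nM at 22 h upward, were closer than the sum of their SDs.

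Between the doses and against DMSO, the counts in VCaP cells were as follows. For 2 µM against 500 nM, 2 of 5 members were called at 8 h, with a background of 17.6%, and 3 of 5 at 22 h, with a background of 20.2%. The 3 at 22 h were STEAP4, STEAP2 (log2 -0.22, adjusted p = 0.00706) and STEAP1 (log2 -0.13, adjusted p = 0.0498 in edgeR's test). The STEAP1 call was lost without 2 µM replicate 1 or 3 (-0.11 and -0.13) or 500 nM replicate 2 or 3 (-0.1 and -0.12), each left out alone, and by DESeq2 (-0.12). STEAP2 at 8 h, at -0.16 (adjusted p = 0.0618), gained a call without 2 µM replicate 4 (-0.18) or 500 nM replicate 3 (-0.19). For R1881 with 2 µM darolutamide against DMSO, 5 of 5 members were called at 8 h, 4 higher and 1 lower, with a background of 27.5%, and 4 of 5 at 22 h, all higher, with a background of 59%.

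In LAPC4 cells STEAP1, STEAP1B and STEAP2 rose under R1881 and STEAP4 fell, each by less than 1 log2 unit. At 8 h, 3 of 5 members were called for R1881 against DMSO, 2 higher and 1 lower, where 2.64% of 18204 genes were called. At 22 h, 4 of 5 were called, 3 higher and 1 lower, where 13.3% were called. The median log2 fold change of the 5 genes was 0.13 at 8 h and 0.7 at 22 h, against -0.0146 and 0.00672 over all tested genes.

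STEAP1 in LAPC4 cells lay between 14.9 and 18.9 CPM (median 17.4) in DMSO and between 19.8 and 23.7 CPM (median 21.2) in R1881 libraries at 8 h. At 22 h it lay between 15.3 and 18.2 CPM (median 17.1) and between 24.8 and 31.4 CPM (median 27.6). The groups were separate at both times. The log2 fold change was 0.29 (standard error 0.0455, adjusted p = 5.07e-06) at 8 h and 0.7 (standard error 0.0504, 1.62-fold, adjusted p = 5.22e-17) at 22 h in edgeR's test. With control replicates 1 to 5 alone the 8 h call was lost, at 0.17.

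STEAP2 in LAPC4 cells lay between 15.6 and 24.2 CPM (median 17.5) in DMSO and between 20.8 and 26.5 CPM (median 23.8) in R1881 libraries at 8 h, with overlap. By 22 h it lay between 17.9 and 23.6 CPM (median 22.3) and between 29.8 and 39.8 CPM (median 37.3), without overlap. This was a log2 fold change of 0.38 (standard error 0.0636, adjusted p = 2.85e-05) at 8 h and 0.76 (standard error 0.0696, 1.69-fold, adjusted p = 4.27e-13) at 22 h in edgeR's test. STEAP1B was not called at 8 h (0.13, adjusted p = 0.637) and rose by 0.7 at 22 h (standard error 0.0849, adjusted p = 2.21e-09), from 3.73 to 5.65 CPM (median 4.78) in DMSO to 6.69 to 8.84 CPM (median 7.69) in R1881 libraries.

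STEAP4, the gene with the largest VCaP response, fell in LAPC4 cells. At 8 h it lay between 19.3 and 26.9 CPM (median 24) in DMSO and between 16.4 and 19.8 CPM (median 18.1) in R1881 libraries. The 22 h libraries lay between 19 and 25.8 CPM (median 23.4) and between 14.1 and 19.5 CPM (median 16.2). At each time 9 of 10 R1881 libraries were below every DMSO library. As a log2 fold change this was -0.37 (standard error 0.0554, 1.29-fold lower, adjusted p = 2.53e-06) at 8 h and -0.51 (standard error 0.0606, 1.42-fold lower, adjusted p = 1.41e-09) at 22 h in edgeR's test. STEAP3 was near the limit of this depth, with 14 to 51 reads per LAPC4 library, and edgeR called it in 0 of 12 LAPC4 comparisons, of which 0 had an unadjusted p under 0.05. Its levels ran from 0.727 to 2.2 CPM over all LAPC4 libraries. Its log2 fold change for R1881 was -0.1 at 8 h (95% interval -0.36 to 0.16) and 0.19 at 22 h (95% interval -0.08 to 0.46).

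In LAPC4 cells the response of 3 of 5 members was larger at 22 h than at 8 h, where 3.21% of genes differed. The difference was 0.41 for STEAP1 (standard error 0.0676, adjusted p = 3.12e-05 in edgeR's test), 0.57 for STEAP1B (standard error 0.116, adjusted p = 0.000852) and 0.38 for STEAP2 (standard error 0.0937, adjusted p = 0.00878). With the DMSO and R1881 replicates from 6 upward alone none of the 3 was called, at 0.24, 0.55 and 0.27. In that setting the DMSO group at 22 h held replicates 6 and 7 alone. With replicates 1 to 5 alone all 3 were called, at 0.55, 0.65 and 0.52. The labels do not say how these sets of replicates differ. Between 8 h and 22 h of DMSO, 1 of 5 members was called (STEAP2, 0.22, adjusted p = 0.0171, lost under a replicate block at 0.16 and with either set of control replicates at 0.11 and 0.3) where 22.1% of genes were called.

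With darolutamide, the members that R1881 had changed in LAPC4 cells lay back near their DMSO level at 22 h at 2 µM, and between the R1881 and DMSO means at 500 nM. At 500 nM, 4 of 5 members were called against R1881, 1 higher and 3 lower, where 5.89% of genes were called, and at 2 µM again 4 of 5, 1 higher and 3 lower, where 10.5% were called. STEAP1 stood at 15.4, 18.2, 15.9, 20.3 and 17.7 CPM with 500 nM and at 16.8, 16.7, 16.5, 17.3 and 16.3 CPM with 2 µM, all below the R1881 range of 24.8 to 31.4 CPM. Its log2 fold change was -0.67 at 500 nM (standard error 0.0569, adjusted p = 8.92e-14 in edgeR's test) and -0.73 at 2 µM (standard error 0.0569, adjusted p = 1.49e-15).

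STEAP2 stood at 21.3, 25.1, 25.2, 24.7 and 25.2 CPM with 500 nM and at 18.4, 20.8, 21.8, 23.2 and 18 CPM with 2 µM. Both groups were below every R1881 library, and the 2 µM libraries lay within the DMSO range of 17.9 to 23.6 CPM. The fitted log2 fold change was -0.57 at 500 nM (standard error 0.0778, adjusted p = 1.38e-07 in edgeR's test) and -0.82 at 2 µM (standard error 0.0788, 1.77-fold lower, adjusted p = 2.64e-12). STEAP1B stood at 4.47, 4.69, 4.11, 6.87 and 4.7 CPM and at 4.38, 4.37, 3.77, 4.97 and 3.9 CPM, with log2 fold changes of -0.64 (adjusted p = 1.34e-06) and -0.84 (adjusted p = 8.34e-10). Its 500 nM replicate 4 stood above the other 4 and inside the R1881 range.

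STEAP4 rose back under darolutamide in LAPC4 cells. At 22 h it stood at 18.6, 21, 21.5, 21.3 and 19.4 CPM with 500 nM and at 21.7, 25.1, 23.1, 26.8 and 21.9 CPM with 2 µM. The 2 µM libraries were all above the R1881 range of 14.1 to 19.5 CPM, and 3 of 5 at 500 nM were. In the fit, the log2 fold change was 0.31 at 500 nM (standard error 0.0679, adjusted p = 0.00103 in edgeR's test), lost under a replicate block and with control replicates 1 to 5, at 0.19 each, and 0.54 at 2 µM (standard error 0.0668, 1.45-fold, adjusted p = 6.81e-09).

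At 8 h in LAPC4 cells, 0 of 5 members were called at 500 nM by edgeR, where 0.626% of genes were called. STEAP4 came closest, at 0.26 (adjusted p = 0.0512), and STEAP1 stood at -0.18 (adjusted p = 0.183) and STEAP2 at -0.18 (adjusted p = 0.792). Among the 5, 3 had an unadjusted p under 0.05, and DESeq2 called 1. At 2 µM, 3 of 5 were called, 1 higher and 2 lower, where 1.54% of genes were called. These were STEAP1 at -0.25 (standard error 0.0559, adjusted p = 0.00513, lost under a replicate block at -0.21 and with control replicates 1 to 5 at -0.19), STEAP2 at -0.36 (standard error 0.0784, adjusted p = 0.00261) and STEAP4 at 0.43 (standard error 0.0664, adjusted p = 1.04e-05). STEAP4 stood at 20.8, 21.7, 23.6, 20 and 22.3 CPM with 500 nM and at 24.5, 24.7, 26.3, 24.9 and 21.5 CPM with 2 µM, and every one of these 10 libraries was above every R1881 library of that time.

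The STEAP1 libraries at 8 h stood at 17.5, 20.1, 19.7, 17.9 and 19.6 CPM with 500 nM and at 18.1, 18.6, 19.6, 17.2 and 17.2 CPM with 2 µM, the latter all below every R1881 library. The STEAP2 libraries stood at 19.3, 23.9, 21.3, 20.6 and 19.7 CPM and at 17.1, 19.1, 19.9, 19.1 and 17.4 CPM, again with the 2 µM group below every R1881 library. Over the 8 LAPC4 groups, R1881 at 22 h was the 1 group apart from its neighbour by more than the sum of their SDs for STEAP1B (7.67 ± 0.627 CPM against 5.14 ± 0.468 under R1881 at 8 h) and STEAP2 (36.1 ± 3.44 against 24.3 ± 1.71 at 500 nM and 22 h). For STEAP1 both R1881 groups were, at 27.8 ± 2.13 CPM for 22 h and 21.5 ± 1.26 for 8 h, above 500 nM at 8 h (19 ± 1.16). The order of STEAP4 ran from R1881 at 22 h (16.4 ± 1.81 CPM) to 2 µM at 8 h (24.4 ± 1.76), and no neighbours in it were apart. The STEAP3 means lay between 1.37 ± 0.336 CPM under R1881 at 8 h and 1.94 ± 0.183 at 500 nM and 22 h, with no neighbours apart.

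Between the doses in LAPC4 cells, 0 of 5 members were called at 8 h (background 0.0275%) and 0 of 5 at 22 h (background 0.258%) by edgeR. Against DMSO, 0 of 5 were called for R1881 with 2 µM darolutamide at 8 h (background 0.011%) and 0 of 5 at 22 h (background 0.0165%). At each time 2 of 5 had an unadjusted p under 0.05 between the doses and 0 of 5 against DMSO, and DESeq2 also called 0 in these 4 comparisons. At 22 h the difference from DMSO was -0.03 for STEAP1 (95% interval -0.15 to 0.09), -0.06 for STEAP2 (95% interval -0.22 to 0.1) and 0.03 for STEAP4 (95% interval -0.11 to 0.17).

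The androgen responses of the lines were also compared with each other in a fit over both lines. At 8 h, 3 of 5 members differed, where 58.5% of genes did. STEAP4 differed by 6.29 log2 units (standard error 0.0837, adjusted p = 1.5e-87 in edgeR's test), STEAP3 by -1.2 (standard error 0.135, adjusted p = 1.37e-13) and STEAP1B by 0.29 (standard error 0.0881, adjusted p = 0.0031), each as VCaP minus LAPC4. At 22 h, 3 of 5 differed, where 68.5% of genes did. STEAP4 differed by 7.49 (standard error 0.0913, 180-fold, adjusted p = 4.45e-91), and its rank by size was 3 of 16578 genes at each time. STEAP1 differed by -0.25 (standard error 0.062, adjusted p = 0.000245) and STEAP1B by -0.24 (standard error 0.0929, adjusted p = 0.0168). In the fits within each line, the responses at 22 h were 0.51 in VCaP and 0.7 in LAPC4 for STEAP1. For STEAP1B they were 0.52 and 0.7, so for both genes the gap was smaller than in the fit over both lines. With no filter on low counts, which moved the median of all genes by 0.12, neither was called, at -0.13 and -0.12. The STEAP1B call was also lost under a replicate block (-0.2) and with either set of control replicates (-0.24 and -0.3). For STEAP2 the difference at 22 h was -0.18 (95% interval -0.34 to -0.01, adjusted p = 0.0621).

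To place the doses on 1 scale, the return toward vehicle was computed per library, as the percentage of the R1881 response on the log2 scale that darolutamide had removed. At 22 h in VCaP cells it was 25.3 ± 1.53% (SD, n = 4) at 500 nM and 64.4 ± 1.25% (SD, n = 5) at 2 µM for STEAP4, and 58.9 ± 12.7% and 92.8 ± 10.4% for STEAP2. It was -23.1 ± 12.8% and 1.82 ± 17.9% for STEAP1 and -15.2 ± 12.1% and 5.69 ± 18% for STEAP1B, where a negative value is a level further from DMSO than that of R1881 alone. In LAPC4 cells at 500 nM it was 95.7 ± 22.9% (SD, n = 5) for STEAP1, 89.8 ± 39.7% for STEAP1B, 75 ± 14% for STEAP2 and 62.2 ± 18% for STEAP4, the last at 42.5% against control replicates 1 to 5 alone. At 2 µM it was 104 ± 4.83% for STEAP1, 117 ± 21.7% for STEAP1B, 108 ± 20.7% for STEAP2 and 105 ± 26% for STEAP4. For STEAP4 in VCaP the scale matters, since on linear CPM the 2 µM value at 22 h was 96.4% and the 500 nM value 71.3%.

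**Figure D4:**
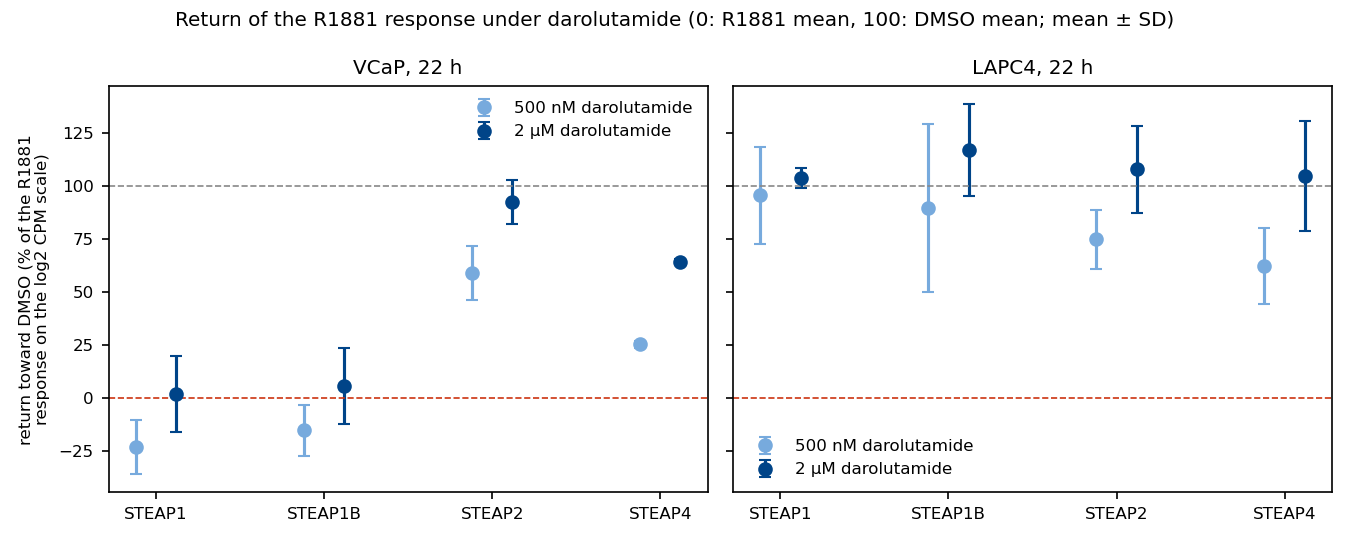
The return toward the DMSO level at 22 h, in percent of the R1881 response on the log2 CPM scale (0 is the R1881 mean and 100 the DMSO mean), is plotted as mean and SD over libraries for 500 nM and 2 µM darolutamide. In VCaP cells STEAP2 reaches 92.8% and STEAP4 64.4% at 2 µM while STEAP1 stays at 1.82%, and in LAPC4 cells all 4 genes lie between 104% and 117% at 2 µM. STEAP3 is left out because R1881 did not change it at 22 h.

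The makeup of the family changed with these shifts. Summed per kilobase, the 5 genes reached 296 ± 11.1 CPM per kb (SD, n = 8) in DMSO, 520 ± 32.3 (SD, n = 9) in R1881 and 379 ± 20.3 (SD, n = 5) in 2 µM libraries of VCaP cells at 22 h. STEAP4 made up 0.219% of that sum under DMSO, 16.4% under R1881 and 0.978% under 2 µM darolutamide. STEAP1 went from 57.2% to 46.4% and 63.2%, and STEAP2 from 37.6% to 33.3% and 30.3%. These shares rest on the division by exon length. On plain CPM at 22 h in VCaP, STEAP2 led in place of STEAP1, with 73% under DMSO, 50.9% under R1881 and 65.1% at 2 µM, STEAP1 held 19.7%, 12.6% and 24%, and STEAP4 0.549%, 32.4% and 2.71%. In LAPC4 cells at 22 h the sum per kilobase was 16.7 ± 0.514 CPM per kb (SD, n = 7) under DMSO, and STEAP4 held 12.5% of it under DMSO and 5.8% under R1881, against 34.2% and 18.2% on plain CPM.

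**Figure D5:**
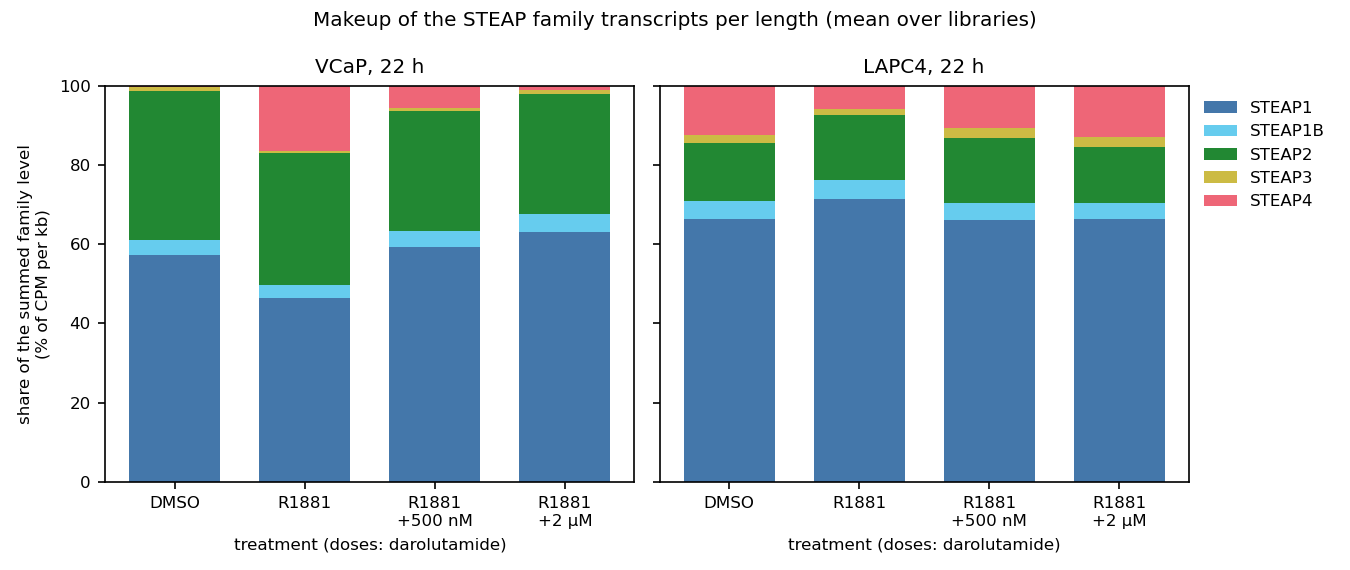
Mean share of each STEAP gene in the summed family level at 22 h, in percent of CPM per kb, for the 4 treatments of VCaP (left) and LAPC4 (right). The STEAP4 share in VCaP goes from 0.219% under DMSO to 16.4% under R1881 and 0.978% with 2 µM darolutamide, and in LAPC4 from 12.5% to 5.8% under R1881.

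Across the 8 group means of log2 CPM in VCaP cells, the genes most like STEAP1 were STEAP1B (Pearson r = 0.998), CROT (0.991) and ENDOD1 (0.981), out of 13967 genes ranked. STEAP2, in spite of lying next to STEAP1, was most like TRIM36 (0.972), ZNF350 (0.969) and GLRX (0.969), and its r with STEAP1 was 0.705 (0.780 over all 55 libraries). STEAP4 was most like MBOAT2 (0.991), LAMC1 (0.991) and CHRNA2 (0.990). In LAPC4 cells, among 13866 genes, STEAP1 was most like NUDT11 (0.993), PMEPA1 (0.991) and SGK1 (0.990), STEAP1B like TMEM164 (0.995), ABCC1 (0.981) and ERVK3-1 (0.977), STEAP2 like TRAM2 (0.997), ANKH (0.996) and PARM1 (0.990), and STEAP4 like MARCKS, ANXA1 and C9orf152 (0.976 each). There, r was 0.867 between STEAP1 and STEAP2 and -0.917 between STEAP2 and STEAP4, and 0.826 and -0.633 over all 57 libraries. Over all libraries, 0 of the 3 most similar genes of each member in LAPC4 were retained, and FKBP5 (0.933) led for STEAP1, STEAP1 (0.859) for STEAP1B, ZNF761 (0.951) for STEAP2 and VAV3 (0.888) for STEAP4. In VCaP, 2 of 3 were retained for STEAP1, 3 for STEAP1B, 2 for STEAP2 and 1 for STEAP4. The 8 points share their treatments and their scaling, and the r values are a description.

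The other genes of metal handling moved in both directions in VCaP cells. Of 28 genes of iron uptake, storage, export and control, 19 were tested at 22 h of R1881, and 9 rose and 6 fell, with a median log2 fold change of 0.04, where 77.4% of all genes were called. At 8 h, 10 rose and 7 fell, with a median of 0.07 and a background of 66.9%. SLC39A14, a zinc and iron importer, rose by 1.05, SLC25A37, a mitochondrial iron importer, by 0.6, and FTL, the ferritin light chain, fell by 1.01 on the log2 scale. With 2 µM darolutamide these moved by -0.35, -0.59 and 0.69 against R1881. In LAPC4 cells at 22 h, 4 of 18 rose and 2 fell, where 13.3% of all genes were called, with SLC39A8, a related importer, at 0.49, SLC25A37 at 0.18 and SLC40A1, the iron exporter ferroportin, at -0.32. All named changes were called by edgeR's test.

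Of 6 other membrane metalloreductases, 3 rose and 3 fell in VCaP cells under R1881 at 22 h, with a median of -0.1 and the same background of 77.4%. At 8 h, 1 rose and 4 fell, with a median of -0.52 and a background of 66.9%. CYB561 rose by 1.65 (standard error 0.051, adjusted p = 2.88e-35 in edgeR's test) and CYB561D2 by 1.27 (standard error 0.0753), and CYBRD1, the duodenal ferric reductase, fell by 3.64 (standard error 0.156, adjusted p = 1.48e-28). With 2 µM darolutamide, CYB561 moved by -0.97, CYB561D2 by -0.83 and CYBRD1 by 1.28 against R1881. In LAPC4 cells at 22 h of R1881, 1 of the 6 was called, where 13.3% of all genes were called. It was CYB561, at 0.15 (adjusted p = 0.0432 in edgeR's test). Of 15 copper-handling genes, 9 rose and 2 fell in VCaP at 22 h, with a median of 0.59 against a background of 77.4%, whereas at 8 h 4 rose and 6 fell, with a median of -0.07 and a background of 66.9%. Those that rose at 22 h included ATP7B, a copper-exporting ATPase, at 1.93, COX17, a mitochondrial copper chaperone, at 1.61, and SLC31A1, the copper importer, at 0.86. In LAPC4 cells at 22 h the 14 tested copper genes had a median of 0.08, and edgeR called 0 of them against a background of 13.3%. Of the 14, 5 had an unadjusted p under 0.05 and DESeq2 called 0.

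Genes around the STEAP loci did not share 1 direction. Of 43 genes within 500 kb of a member, 24 were tested, and in VCaP cells at 22 h of R1881, 9 rose and 13 fell, with a median of -0.26, where 77.4% of all genes were called. At 8 h, 10 rose and 11 fell, with a median of -0.09 and a background of 66.9%. DBI, the acyl-CoA binding protein gene near STEAP3, rose by 3.41, SRI near STEAP4 fell by 1.14 and CDK14 beyond STEAP2 fell by 1.26 on the log2 scale. In LAPC4 cells at 22 h, 2 rose and 1 fell, where 13.3% of all genes were called, DBI at 0.24, DBF4 at 0.16 and KLHL7 at -0.11. Of the genes that overlap a member, STEAP2-AS1 had 3 to 20 reads per VCaP library, STEAP3-AS1 at most 5, and IL6, which overlaps the STEAP1B gene body on the other strand, none in VCaP libraries and at most 4 in LAPC4 libraries. EEF1A1P6, a processed pseudogene inside the STEAP1B gene body on the same strand, had 29178 to 155012 reads, and whether any were counted for STEAP1B was not tested.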

How the data were processed

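Strand-specific libraries of poly(A) RNA were sequenced as single reads of 50 cycles, and the authors aligned them to GRCh38 with STAR and counted reads per gene with featureCounts. The deposited values are these raw counts. The submitters' notes name bcl2fastq 2.17, and the annotation and the treatment of multi-mapping reads are not given in the sources used here. The tests were fitted with edgeR 4.0.16 in R 4.3.3 by quasi-likelihood on TMM-scaled counts, over all 8 groups of a line together, or over all 16 groups for comparisons between lines. Genes that reached 10 reads in 4 or more libraries were tested, 19266 in VCaP and 18204 in LAPC4, with Benjamini-Hochberg adjustment over all of them and a threshold of 0.05. Log2 CPM used a prior count of 2, levels were scaled within each line, and exon lengths came from GENCODE 44. Intervals of fold changes are 95% intervals.

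The members were taken by symbol and not by their values. Earlier results of these data were known when the members, the gene lists and the alternatives were chosen. The named list genes are the first 3 called genes of each list by adjusted p at 22 h of R1881, and the most similar genes are the first 3 by Pearson r. The study's methods state 5 biological replicates per condition, whereas the labels number 4 to 10 libraries per group and do not say which came from separate cultures, so p-values measure the spread between these libraries, which may be technical. Within groups, no pair of libraries held identical counts, and the chi-square of counts per degree of freedom was at least 1.47 for every pair. Pairs across groups were not compared. DESeq2 1.42.0, other scalings and filters, a GC correction, a replicate block and leaving out each darolutamide library in turn were tried as alternatives. No DMSO or R1881 library was left out singly. Control replicates 1 to 5 or 6 upward alone were added after seeing the data. Of these steps, only the edgeR fit was tested on simulated counts. Far fewer genes were changed there than the same comparisons called, so it does not check calls where most genes change.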

Additional observations from a re-analysis of the deposited data

Results flagged for a closer look

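The response to R1881 differed between the times or the lines for several members, by the test of the difference itself in edgeR. In VCaP cells the response at 22 h minus that at 8 h was 1.24 for STEAP3 and 1.03 for STEAP4 on the log2 scale, and in LAPC4 cells it was 0.41 for STEAP1, 0.57 for STEAP1B and 0.38 for STEAP2. The response in VCaP minus that in LAPC4 was 0.29 for STEAP1B, -1.2 for STEAP3 and 6.29 for STEAP4 at 8 h. At 22 h it was -0.25 for STEAP1, -0.24 for STEAP1B and 7.49 for STEAP4.

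Single libraries stood apart from their group by Dixon's test in 4 of the 80 groups of values tested, where chance flags about 1 in 20. STEAP1B in the fourth LAPC4 library with 500 nM darolutamide at 22 h had a log2 CPM of 2.8, against a group median of 2.26. STEAP2 in the first library of the same group had 4.42, against 4.66. STEAP3 in the fourth LAPC4 DMSO library at 8 h had -0.28, against 0.73, and STEAP4 in the seventh LAPC4 DMSO library at 22 h had 4.25, against 4.55.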

How the results depend on the processing

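The 27 comparisons called from 0.011% of all genes (2 µM against DMSO in LAPC4 at 8 h) to 85.5% (DMSO between the lines at 22 h). Of 135 comparisons of a member, 75 were called, and 59 of these kept call and direction under every alternative run for them. The call was lost under some alternative in 16 (largest log2 change 0.57), and 18 that were not called gained one. The STEAP4 and STEAP2 calls in VCaP at 22 h against R1881 were among those kept. STEAP1 in VCaP at 22 h, 2 µM against R1881, turned from -0.01 to 0.08 with library totals. Below, "GC" is the GC correction and the block is the replicate number. The cause of the shifts was not tested.

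In the main fit, 68.5% of all genes were called for the line difference at 22 h and 58.5% for that at 8 h. Against these shares, the counts of members called for the line differences do not by themselves set the family apart. Calls over all genes also moved under several alternatives, as given below. The member counts that follow are not each given with the share of all genes under the same alternative. Whether the members moved more than all genes did was not tested. The counts of members called went from 3 to 5 (GC) or 1 (no filter) for the line difference at 22 h. For that at 8 h they went from 3 to 5 (compared groups, DESeq2, GC, GC with block, no filter, replicate block, RLE). In VCaP they went from 3 to 5 for 2 µM against 500 nM at 22 h (GC, also with block), from 3 to 5 for 2 µM at 8 h (GC with block, totals), from 5 to 2 for 500 nM at 8 h (replicate block), from 2 to 1 for DMSO over time (controls 1 to 5, or 6 upward) and from 2 to 4 for the time difference (GC). In LAPC4 they went from 0 to 1 for 2 µM against 500 nM at 22 h (GC, also with block), from 0 to 1 (compared groups, controls 6 upward, DESeq2), 3 (GC) or 2 (GC with block) for 500 nM at 8 h, from 1 to 0 for DMSO over time (both control sets, block), and from 3 to 0 for the time difference (controls 6 upward). Leaving out 1 darolutamide library moved no count by over 1.5 times, and no DMSO or R1881 library was left out singly.

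Counts over all genes moved most in LAPC4. At 22 h, 2 µM against R1881 went from 1906 to 3656 (GC) and 4713 (GC with block), 500 nM from 1072 to 2252 and 2781, and R1881 from 2418 to 4085 (GC) and 863 (controls 6 upward). At 8 h they went from 281 to 661, 1234 and 89 (block), from 114 to 281, 430, 72 (no filter) and 9 (block), and from 481 to 1073, 958, 304 (block), 238 (controls 1 to 5) and 220 (6 upward). For 2 µM against 500 nM, 47 at 22 h became 181, 234, 11 (compared groups) and 9 (block), and 5 at 8 h became 43, 164 and 2 (compared groups). For 2 µM against DMSO, 3 at 22 h became 76, 1082, 1 (compared groups or controls 6 upward), 90 (1 to 5) and 63 (block), and 2 at 8 h became 8, 953, 1 (compared groups or block), 42 (1 to 5) and 6 (6 upward). DMSO over time went from 4020 to 6693 (GC) and 1390 (6 upward), and the time difference from 584 to 1533, 1389, 275 (1 to 5), 154 (6 upward) and 386 (no filter). Without a single library, 2 µM against 500 nM gave 31 at 22 h (2 µM replicate 5) and 8 at 8 h (500 nM replicate 2), and 2 µM against DMSO at 22 h gave 1 (2 µM replicate 1 or 5). In VCaP, 2 µM against 500 nM went from 3889 to 5972 and 6142 at 22 h and from 3386 to 5129 (GC) at 8 h. The block took 500 nM at 8 h from 5897 to 2564 and 2 µM against DMSO at 8 h from 5289 to 3375, and DMSO over time went from 5739 to 3520 (1 to 5) and 3456 (6 upward).

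Deviations of same-numbered libraries correlated on average at -0.0122 in VCaP (149 pairs, 55 of them over 0.1, and 0.00155 for other numbers). In LAPC4 the average was 0.106 (161 pairs, 79 of them over 0.1, and -0.0138 for other numbers). The numbers were not taken as paired, because not every pair was over 0.1. That rule cannot decide whether they are paired, since noise in single libraries can also lower the r of a pair. In LAPC4 at 22 h the block raised 2 µM against R1881 from 1906 to 2788 genes. The replicate block took the call from STEAP1 in LAPC4 at 8 h, 2 µM (-0.21), and the other calls it took were STEAP1 in VCaP at 22 h, 500 nM, 3 members in VCaP at 8 h, 500 nM, STEAP4 in LAPC4 at 22 h, 500 nM (0.19), the STEAP1B line difference at 22 h (-0.2) and STEAP2 in LAPC4 DMSO over time (0.16). It could not be fitted between the DMSO groups of the lines.

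With library totals the share of higher calls went from 49.1% to 34% for R1881 in VCaP at 8 h, where all genes shifted by -0.14, and by -0.11 at 22 h. It went from 48.7% to 69.1% (500 nM, 8 h), 49.8% to 67.1% (2 µM, 8 h), 42.8% to 54.7% (between doses, 8 h), 50.3% to 63.4% (500 nM, 22 h), 53.3% to 39.3% (DMSO over time), 56% to 42.3% (LAPC4 time difference) and 48.4% to 37.9% (DMSO between lines, shift -0.27), and with no filter from 45.1% to 57.9% for the line difference at 8 h. Division by exon length moved 71 of 80 family shares, and likeness over all libraries moved 5 of 8 lists. Depth limits STEAP3 in LAPC4, at 14 to 51 reads.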
